A study of Mus musculus with 24 samples.

Results

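Reg lectins and the secreted antimicrobial proteins of Paneth cells were followed along the mouse small intestine, in wild-type and Casp1-null animals, with liver as the reference tissue. The set holds 10 genes chosen by name, with earlier results of these data known: Reg1, Reg3a, Reg3b, Reg3g, Retnlb, Itln1, Pglyrp1, Lyz1, Ang4 and Mmp7. They are 10 of the 18820 genes that the arrays measure with a probe set of a single gene, and they are covered by 11 of the 35556 probe sets, since Itln1 has a second one. The study hybridised 24 whole-transcript arrays, 3 for each of 8 groups: duodenum, jejunum, ileum and liver of wild-type and of Casp1-null mice. All mice were males aged 14 to 16 weeks on standard chow. The Casp1-null line carried the null allele after 10 generations of backcrossing to C57Bl/6, and the age-matched controls were wild-type C57Bl/6J mice, so remaining strain differences cannot be told apart from the null allele. Liver came from mice fasted for 16 h. The intestinal samples came from overnight-fasted mice, 2 h after 200 µL of olive oil into the stomach, and hold the epithelial layer scraped from each segment. Tissue and oil load therefore cannot be told apart between liver and gut, and there was no intestinal sample without oil. The labels give 3 samples a group and do not say whether equal numbers in different segments mark the same mouse, so p-values measure the spread between these samples.

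Reg proteins are small secreted C-type lectins. Reg3g and Reg3b are made by enterocytes and Paneth cells in response to bacteria and to interleukin-22, and Reg3g binds the peptidoglycan of Gram-positive bacteria. Paneth cells sit at the base of the crypts and release granules of lysozyme and alpha-defensins. Caspase-1 is the inflammasome protease that activates interleukin-1 beta and interleukin-18.

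The Reg genes of the set lie together on chromosome 6, in the order Reg3b, Reg3d, Reg3a, Reg2, Reg1, Reg3g. The 250 bases before the start of 3 of them are shown because Reg3b and Reg3g moved together across the arrays while Reg1, which lies between them, did not; that of Pglyrp1 is shown because it carried the clearest genotype difference. They are from RefSeq, build GRCm38.p6, written 5′ to 3′ on the strand of the gene: chr6:78425733-78425982 (plus strand) for Reg1, chr6:78370635-78370884 (plus) for Reg3b, chr6:78468875-78469124 (minus) for Reg3g and chr7:18884440-18884689 (plus) for Pglyrp1. Capitals mark matches on either strand to 4 motifs: the TATA box TATAAA, the STAT motif TTCNNNGAA, the TCF motif CTTTGA and the NF-kappaB motif.
Reg1: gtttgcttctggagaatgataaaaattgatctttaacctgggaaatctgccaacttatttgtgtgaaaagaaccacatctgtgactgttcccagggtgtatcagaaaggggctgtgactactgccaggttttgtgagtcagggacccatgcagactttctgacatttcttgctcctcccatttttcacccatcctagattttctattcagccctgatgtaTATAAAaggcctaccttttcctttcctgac
Reg3b: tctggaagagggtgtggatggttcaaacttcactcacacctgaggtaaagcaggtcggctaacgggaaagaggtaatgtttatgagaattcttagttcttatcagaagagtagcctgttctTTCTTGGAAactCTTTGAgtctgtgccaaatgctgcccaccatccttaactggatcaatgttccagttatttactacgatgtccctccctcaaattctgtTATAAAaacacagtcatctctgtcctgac
Reg3g: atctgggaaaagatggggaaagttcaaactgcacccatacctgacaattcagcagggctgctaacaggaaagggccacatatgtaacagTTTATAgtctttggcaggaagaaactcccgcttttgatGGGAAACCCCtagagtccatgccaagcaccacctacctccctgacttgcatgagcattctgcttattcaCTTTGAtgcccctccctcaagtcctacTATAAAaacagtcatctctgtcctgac
Pglyrp1: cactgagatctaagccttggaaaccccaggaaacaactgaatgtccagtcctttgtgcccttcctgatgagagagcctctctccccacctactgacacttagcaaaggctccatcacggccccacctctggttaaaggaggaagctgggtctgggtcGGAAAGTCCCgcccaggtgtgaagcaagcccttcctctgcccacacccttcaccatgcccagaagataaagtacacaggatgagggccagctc

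A TATAAA match began 30 bases before the start in Reg1, 29 in Reg3b and 27 in Reg3g. Reg3b also held TTCTTGGAA, a STAT match, 129 bases before its start. A CTTTGA match lay 117 bases before the start in Reg3b and 54 in Reg3g. NF-kappaB matches were GGGAAACCCC, 123 bases before Reg3g, and GGAAAGTCCC, 93 bases before Pglyrp1 and matching on the minus strand. Reg3g held a further TATA box match on the minus strand, 161 bases before its start. The STAT motif reads the same on both strands, and no marked match overlaps a match of another motif. Over 32851 such windows, 12.4% held TATAAA, 7.02% the STAT motif, 13.8% CTTTGA and 7.25% the NF-kappaB motif. These are matches of letters and show no binding. Aligned to each other, the Reg3b and Reg3g windows were identical at 68.4% of positions, against 46.1% to 51% for the other pairs of Reg1, Reg3a, Reg3b and Reg3g. Reg3a, whose window is not shown, also varied with Reg3b (r = 0.747 once each group's mean was taken out). Its window held only a CTTTGA match, 7 bases before the start, and was identical to that of Reg3b at 46.1% of positions.

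Values are RMA-summarised log2 expression, so a difference of 1 is a change of 1 doubling. Levels of different genes come from different probes and are not compared with each other. A gene is called at an adjusted p under 0.05 by limma, with Benjamini-Hochberg adjustment over all 35556 probe sets. Counts at an unadjusted p under 0.05 come without the share of all genes at that level, so they cannot tell whether there is an excess. A group mean below the lowest array median of its tissue (4.874 in gut, 5.187 in liver) is treated as not shown above background, and a fold change against it is a lower bound. The targeted gene Casp1 was lower in Casp1-null samples of all 3 segments, by 2.07 (SE 0.226; adjusted p = 0.000166) in duodenum, 3.07 in jejunum and 2.22 in ileum on the log2 scale. In liver its mean was below the array median in both genotypes (4.44 and 4.10), so the label could not be checked there. Hepatocyte markers (11 of 12 measured) averaged at least 12.71 on every liver array and at most 7.64 in gut, and enterocyte markers (14 of 15) averaged at least 11.08 on every gut array. Exocrine pancreas markers (18 of 25 measured) stood at 9.18 on wild-type duodenum array 1 and at 4.02 to 4.37 on the other 17 gut arrays. Smooth muscle and stroma markers (15 of 15) stood at 8.65 on wild-type ileum array 2 and 8.47 on Casp1-null ileum array 3, against 4.71 to 6.00 on the other 16 gut arrays. In bulk samples fewer cells of a type and less RNA per cell cannot be told apart.

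**Figure D1:**
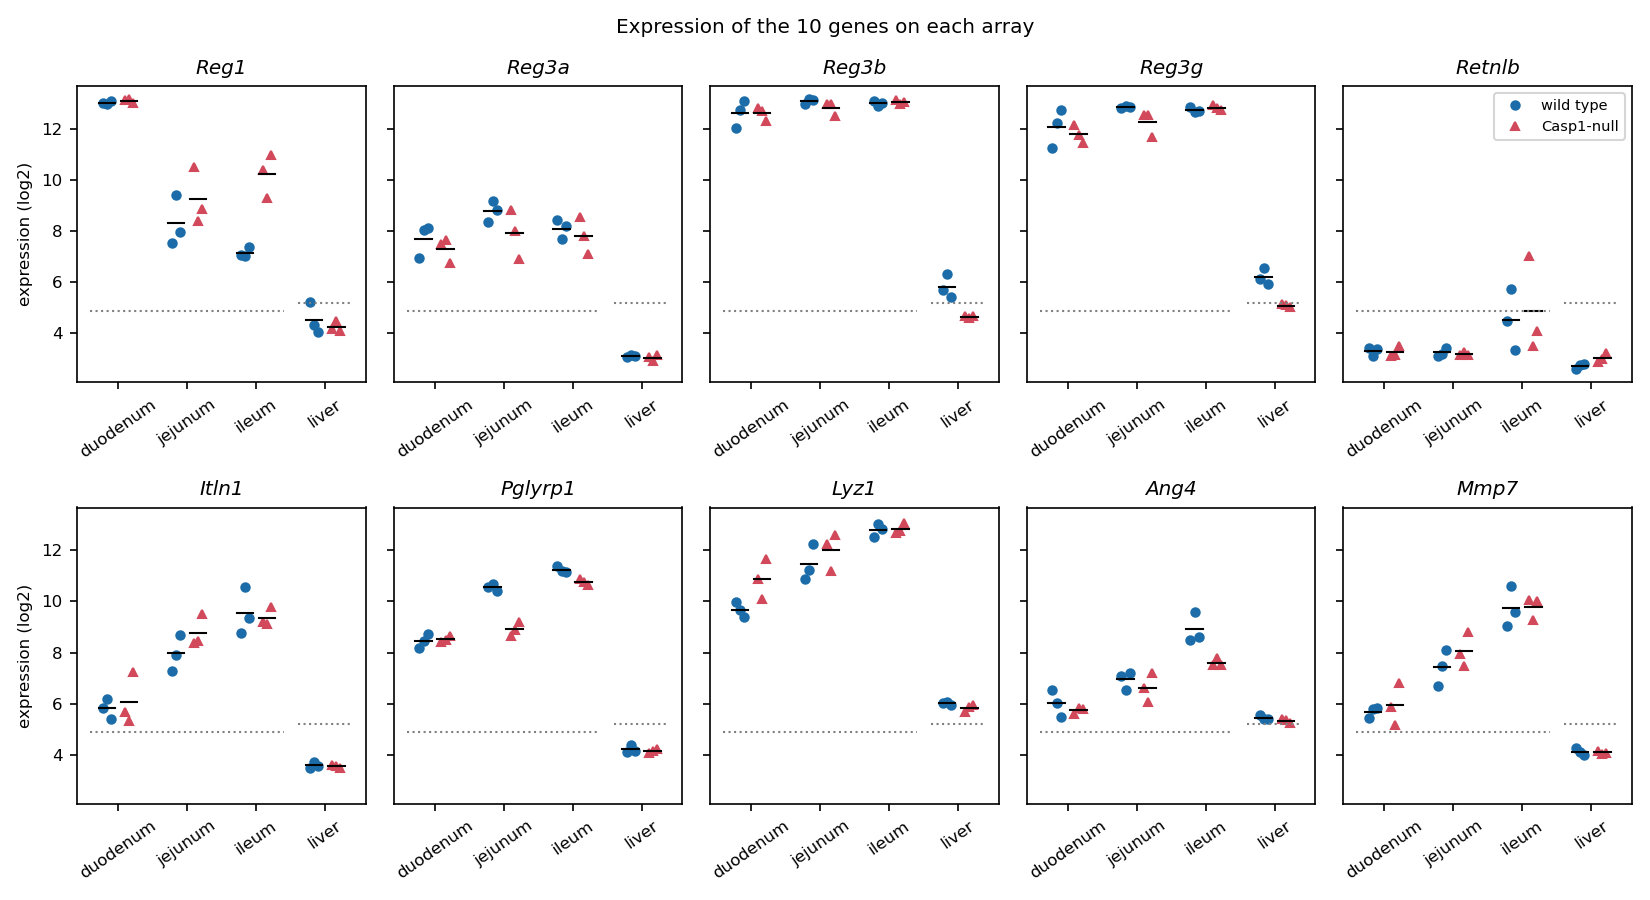
Log2 expression (y axis) of each of the 10 genes on every array, by tissue (x axis). Circles are wild-type and triangles Casp1-null arrays, black bars are means of 3 arrays, and dotted lines mark the lowest array median of gut and liver. Reg1 is highest in duodenum, the Paneth cell genes are highest in ileum, and Reg3b and Reg3g stand near the top of the scale in every segment.

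Reg1, a secreted lectin also made in large amounts by the acinar pancreas, had the widest gradient of the set in wild type, and was the one gene of the 10 that fell from duodenum to ileum. In wild-type duodenum it stood at 13.00, 12.97 and 13.10, in jejunum at 7.55, 9.40 and 7.95, and in ileum at 7.06, 7.02 and 7.39. Every wild-type duodenal array was far above every other wild-type array, while the jejunal and ileal values lay next to each other without overlap. From duodenum to jejunum Reg1 fell by 4.72 (SE 0.52; 26.4-fold; adjusted p = 4.85e-05) and from duodenum to ileum by 5.87 (58.3-fold; adjusted p = 1.28e-06), both in wild type. The step from jejunum to ileum, -1.15, was not called (adjusted p = 0.19). Its duodenal level was near the top of the array scale, where the brightest probe set of each array lay between 13.74 and 13.98, so these falls may be understated and a duodenal difference could hardly show. The pancreas markers stood high on the duodenal array with 13.00, and their part in that level was not tested. Reg2, its pancreatic neighbour, was 7.07 on that array and 3.55 to 4.53 on the other 17 gut arrays.

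In Casp1-null mice Reg1 was higher at the ileal end of that gradient. Duodenal Reg1 was 13.13, 13.15 and 13.00, jejunal 10.50, 8.40 and 8.85, and ileal 10.39, 9.29 and 10.97. In ileum every Casp1-null array was above every wild-type array, in jejunum the genotypes overlapped, and in duodenum they overlapped near the top of the scale. The ileal mean was 10.22 ± 0.855 against 7.16 ± 0.203 (SD, n = 3 each), a rise of 3.06 (SE 0.52; 8.34-fold; adjusted p = 0.009). Of the 10 genes Reg1 was the only one called between genotypes in ileum, where 0.893% of all genes were called. The jejunal difference of 0.95 (95% interval -0.16 to 2.06) and the duodenal difference of 0.07 (-1.04 to 1.18) were not called. The ileal difference was not shown to exceed the others: tested directly, it was 2.11 larger than the jejunal one (adjusted p = 0.848) and 2.99 larger than the duodenal one (adjusted p = 0.375). In the comparison of ileum with jejunum 0 of the 10 genes were called by limma (0.0425% of all genes), with 2 at an unadjusted p under 0.05, and in that of ileum with duodenum again 0 (0.0691% of all genes), with 3 at that level. Pancreas markers gave 4.02 to 4.20 in wild-type ileum and 4.02 to 4.19 in Casp1-null ileum. The highest ileal value, 10.97, was on Casp1-null array 3, the one rich in muscle markers. Without that array the difference was 2.68 and no longer called (adjusted p = 0.0531). Without both muscle-rich arrays it was 2.61 (adjusted p = 0.128), and with only the 6 ileal arrays fitted it stayed 3.06 (adjusted p = 0.0882).

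The Casp1-null gradient of Reg1 was still a fall from duodenum, by 3.84 to jejunum (14.3-fold; adjusted p = 0.000415) and by 2.88 to ileum (7.34-fold; adjusted p = 0.00119). Jejunum and ileum did not differ beyond their spread (0.97; adjusted p = 0.312).

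Reg3b and Reg3g, the bacteria-responsive lectins, were close to the top of the scale in every segment and genotype. Reg3b was 12.03, 12.72 and 13.08 in wild-type duodenum, 12.98, 13.15 and 13.11 in jejunum, and 13.09, 12.89 and 13.00 in ileum. In the same order of segments, Casp1-null values were 12.81, 12.71 and 12.29, then 12.96, 12.97 and 12.51, then 13.13, 12.97 and 13.07. Reg3b, like duodenal Reg1, had little room below the brightest probe sets, and the 6 group means spanned 0.48. No genotype or segment difference of Reg3b was called in gut, though without wild-type duodenum array 3 the wild-type difference of ileum from duodenum was (0.62; adjusted p = 0.0381).

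Reg3g, its close relative, had group means that spanned 1.07. Wild-type duodenum gave 11.26, 12.22 and 12.74, jejunum 12.83, 12.89 and 12.87, and ileum 12.87, 12.65 and 12.69. Casp1-null duodenum gave 12.16, 11.76 and 11.45, jejunum 12.53, 12.55 and 11.70, and ileum 12.92, 12.82 and 12.74. In Casp1-null mice ileal Reg3g exceeded duodenal Reg3g by 1.04 (SE 0.298; adjusted p = 0.0258), while the wild-type difference of 0.66 was not called (adjusted p = 0.13). The Casp1-null call was lost when any single array other than duodenum array 1 was left out (adjusted p = 0.0512 to 0.102). Conversely, without wild-type duodenum array 3 the wild-type differences of jejunum and ileum from duodenum were called (1.12 and 0.99, adjusted p = 0.0364 and 0.0225). In jejunum all 3 Casp1-null arrays were below all 3 wild-type arrays for Reg3g (-0.60; 95% interval -1.24 to 0.04; adjusted p = 0.484) and for Reg3b (-0.27; -0.72 to 0.18; adjusted p = 0.745), and neither difference was called.

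Reg3a, a further lectin of the Reg3 group, varied more within its groups. Wild-type values were 6.95, 8.03 and 8.13 in duodenum, 8.34, 9.16 and 8.84 in jejunum, and 8.44, 7.67 and 8.18 in ileum. Casp1-null values were 7.49, 7.66 and 6.73, then 8.81, 8.01 and 6.92, then 8.56, 7.80 and 7.09. The groups overlapped between genotypes in every segment, and no segment or genotype difference was called. Its largest genotype difference, in jejunum, was -0.87 (95% interval -1.88 to 0.14; adjusted p = 0.547). Reg3d, which lies between Reg3b and Reg3a, was at most 4.52 on any gut array, under the background level.

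Array by array, Reg3b and Reg3g varied together. Their Pearson r over the 18 gut arrays was 0.958, and 0.967 after each group's mean was taken out. Reg3a followed Reg3b with r of 0.752 and 0.747, and Reg1 followed neither, with r of -0.496 to Reg3b and 0.223 within groups. These correlations describe 18 arrays that share tissue, preparation and normalisation. Among 11457 genes above background, those most like Reg3g over the same arrays were Apol10a (r = 0.915), the epithelial kinase Ptk6 (0.91), the cell adhesion molecule Ceacam1 (0.888), Ints12 (0.88) and Tifa (0.879), an adaptor upstream of NF-kappaB. Those most like Reg3b were Apol10a (0.863), Rnf213 (0.83), Ptk6 (0.83), Ints12 (0.824) and the transglutaminase Tgm2 (0.821). Apol10a, Ptk6 and Ints12 thus stood in both sets of 5.

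**Figure D2:**
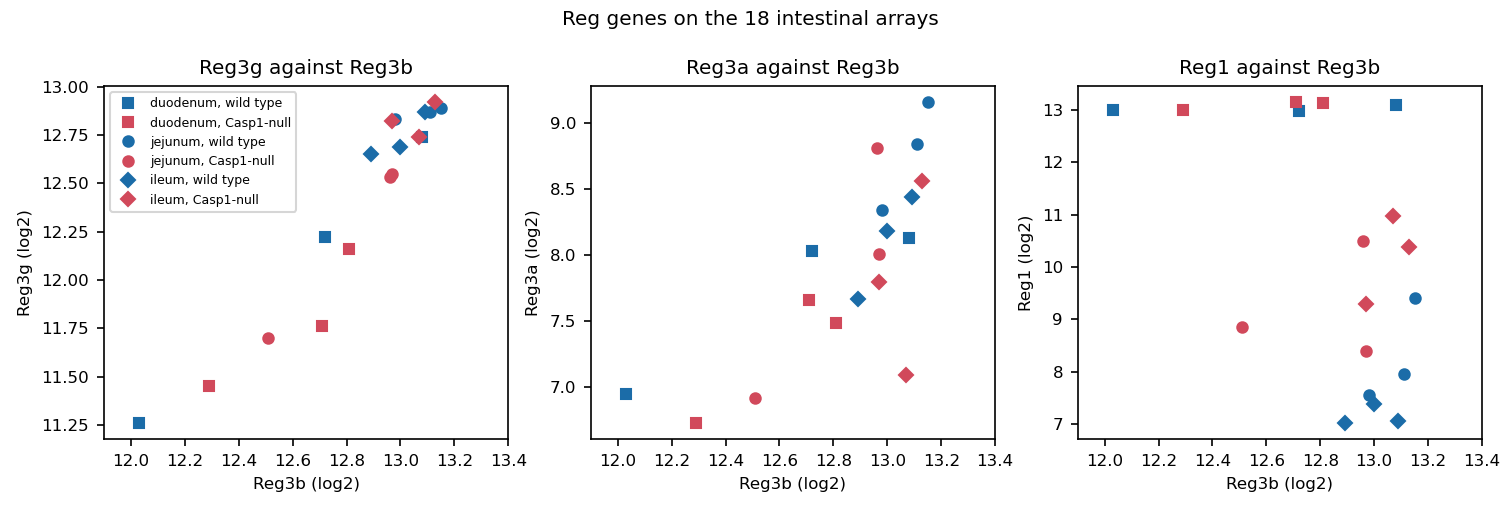
Log2 expression of Reg3g, Reg3a and Reg1 (y axes) against that of Reg3b (x axis) on the 18 gut arrays, with each symbol 1 array, shaped by segment and coloured by genotype. Reg3g follows Reg3b closely (r = 0.958), Reg3a more loosely (r = 0.752), and Reg1 splits by segment instead.

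Pglyrp1, a peptidoglycan recognition protein that kills bacteria by acting on their cell wall, carried the clearest genotype difference of the set. In wild-type jejunum it was 10.57, 10.70 and 10.41, and in Casp1-null jejunum 8.65, 8.89 and 9.18. The genotypes were well apart, with more than 1 log2 unit between the nearest arrays. It fell by 1.65 in Casp1-null jejunum (SE 0.15; 3.14-fold; adjusted p = 2.6e-05). It was the 1 gene of the 10 called there, where 2.06% of all genes were called. The call was kept under all 16 alternative settings tried (adjusted p = 7.13e-06 to 0.012).

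In duodenum Pglyrp1 was level, at 8.16, 8.45 and 8.74 in wild type and 8.41, 8.50 and 8.63 in Casp1-null mice (0.06; 95% interval -0.26 to 0.38). No gene of the 10 was called between genotypes in duodenum by limma (1.21% of all genes), where 1, Lyz1, had an unadjusted p under 0.05 (0.0102). In ileum Pglyrp1 stood at 11.38, 11.19 and 11.17 in wild type and at 10.86, 10.75 and 10.66 in Casp1-null mice. All 3 Casp1-null ileal arrays were below all 3 wild-type ones, yet the difference of -0.49 (SE 0.15) was not called (adjusted p = 0.267).

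The segments were also compared directly. The genotype difference in jejunum was lower than that in duodenum by 1.71 (SE 0.212; adjusted p = 0.00584). Pglyrp1 was the only gene of the 10 called in that comparison, where 0.0531% of all genes were called. Against ileum, the jejunal difference was larger by 1.16, which was not called (adjusted p = 0.118). In wild-type mice Pglyrp1 climbed from duodenum to jejunum by 2.11 (4.31-fold; adjusted p = 5.59e-07) and from jejunum to ileum by 0.69 (1.61-fold; adjusted p = 0.00706). In Casp1-null mice the first step was 0.40 and not called (adjusted p = 0.199), and the rise came between jejunum and ileum, at 1.85 (3.6-fold; adjusted p = 2.69e-06). For the average, the segments of equal genotype and number were averaged before the test. In it Pglyrp1 was lower in Casp1-null mice by 0.69 (SE 0.0707; adjusted p = 0.00619). Myeloid and neutrophil markers (15 of 16 measured), which include cells that store Pglyrp1 in granules, averaged 5.11 to 5.30 on wild-type and 5.19 to 5.74 on Casp1-null jejunal arrays, and their part in the Pglyrp1 difference was not tested. Crypt and stem cell markers (11 of 12) were 6.02 to 6.75 and 6.45 to 6.73 there.

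**Figure D3:**
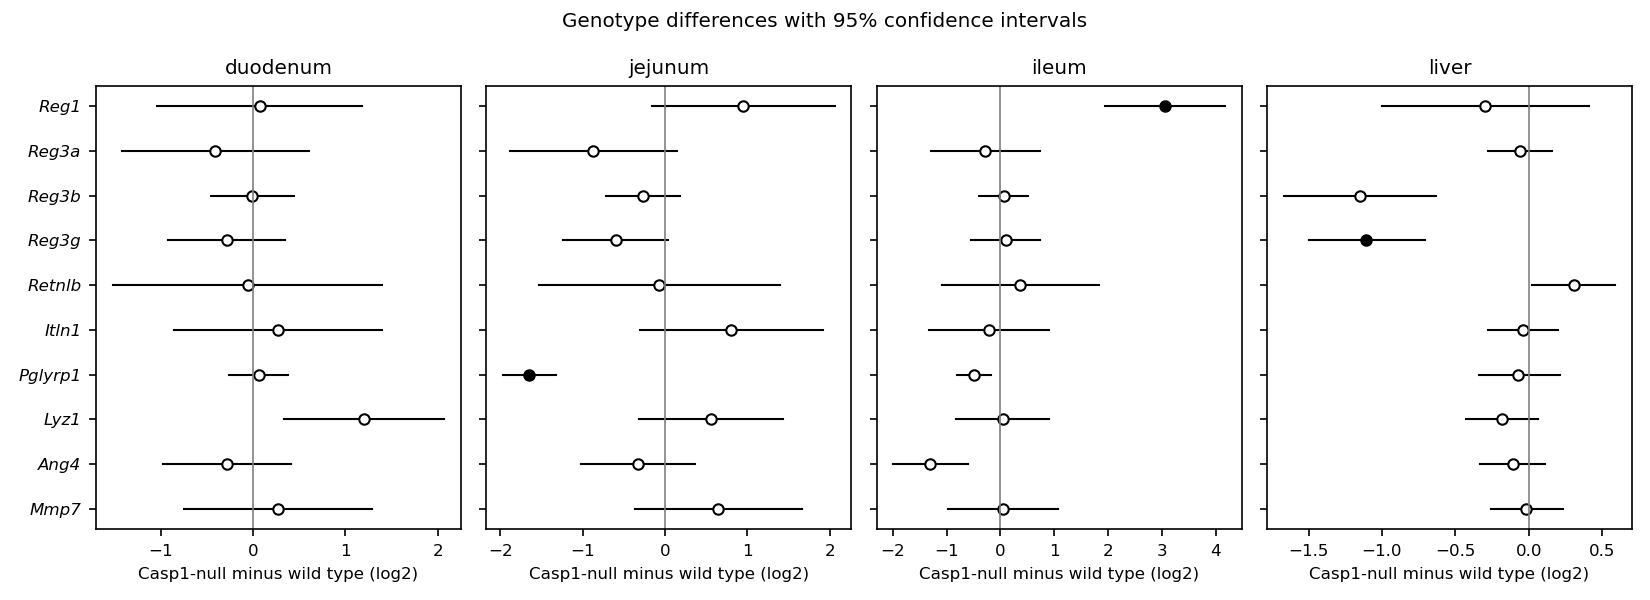
Casp1-null minus wild-type difference (log2, x axis; the scale differs between panels) of the 10 genes in each tissue. Points are limma estimates from 3 arrays per group, bars are 95% confidence intervals, and filled points are called at an adjusted p under 0.05: Pglyrp1 in jejunum (-1.65), Reg1 in ileum (3.06) and Reg3g in liver (-1.11).

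Lyz1, the Paneth cell lysozyme, rose along the gut of both genotypes. Wild-type values were 9.96, 9.67 and 9.40 in duodenum, 10.89, 11.25 and 12.23 in jejunum, and 12.51, 13.05 and 12.84 in ileum. Casp1-null values were 10.87, 10.10 and 11.66, then 12.24, 11.20 and 12.59, then 12.68, 12.76 and 13.08. The ileum was the highest segment in both genotypes. From duodenum to ileum the rise was 3.12 in wild type (8.72-fold; adjusted p = 5.12e-05) and 1.96 in Casp1-null mice (3.89-fold; adjusted p = 0.00346). All 3 Casp1-null duodenal arrays were above all 3 wild-type ones, by 1.20 on average (SE 0.408), and that difference was not called (adjusted p = 0.219). Lyz2, the closely related lysozyme of macrophages, showed the same ordering there, with 9.58, 8.08 and 8.88 against 7.16, 7.09 and 6.96 (1.77; adjusted p = 0.0766). Stroma markers were 5.25 to 5.60 in Casp1-null and 4.71 to 4.82 in wild-type duodenum, and crypt markers 6.11 to 6.66 against 5.86 to 5.97. Their part in the Lyz1 difference was not tested.

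Mmp7, the protease matrilysin that converts alpha-defensin precursors into their active form, had the widest rise of the 10 genes. Wild-type values were 5.42, 5.78 and 5.83 in duodenum, 6.71, 7.48 and 8.10 in jejunum, and 9.05, 10.61 and 9.59 in ileum. Casp1-null values were 5.87, 5.16 and 6.81, then 7.95, 7.46 and 8.81, then 10.05, 9.29 and 10.01. From duodenum to ileum Mmp7 rose by 4.07 in wild type (16.8-fold; adjusted p = 1.83e-05) and 3.84 in Casp1-null mice (14.3-fold; adjusted p = 4.57e-05). The genotypes overlapped in every segment, and their largest difference, 0.64 in jejunum, had a 95% interval of -0.37 to 1.66. Mmp7 is on chromosome 9 with Casp1, with 15 protein-coding genes between them, and the other 9 genes lie on other chromosomes.

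Ang4, a bactericidal ribonuclease of Paneth cells, followed the same gradient with a smaller ileal peak in Casp1-null mice. Wild-type ileum gave 8.50, 9.60 and 8.61, and Casp1-null ileum 7.53, 7.77 and 7.51. The ileal groups did not overlap, and the difference of -1.30 (SE 0.324; 2.46-fold) was not called (adjusted p = 0.115). Duodenal values were 6.54, 6.02 and 5.49 in wild type and 5.59, 5.82 and 5.79 in Casp1-null mice, and jejunal values 7.10, 6.53 and 7.21 and 6.60, 6.07 and 7.18. Both of these segments overlapped between genotypes. Ang4 fell by 0.64 in Casp1-null mice on the average over the segments (SE 0.112; adjusted p = 0.0457). Reg1, at 1.36, missed the threshold in that average (adjusted p = 0.0735), which it passed without Casp1-null number 2 (adjusted p = 0.0318), with single arrays in place of the averages (0.0164) and with a filter at the median (0.0383). With Pglyrp1, Ang4 made 2 of 10 genes called in that average, where 2.07% of all genes were called. The Ang4 call was lost without wild-type number 1, 2 or 3 or Casp1-null number 1 or 2 (adjusted p = 0.0554 to 0.156), when single arrays were fitted in place of the averages (adjusted p = 0.0706), and with the number as a block (adjusted p = 0.184). From duodenum to ileum Ang4 rose by 2.89 in wild type (7.41-fold; adjusted p = 1.19e-05) and by 1.87 in Casp1-null mice (3.67-fold; adjusted p = 0.000832), and the difference between those rises, -1.01, was not called (adjusted p = 0.793). The Casp1-null step from jejunum to ileum, 0.99, was not called (adjusted p = 0.0707), but was without jejunum array 3 (1.28; adjusted p = 0.0337).

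Itln1, intelectin-1, a lectin that binds sugars of the microbial surface, also rose along the gut. Wild-type values were 5.83, 6.20 and 5.40 in duodenum, 7.29, 7.92 and 8.70 in jejunum, and 8.77, 10.55 and 9.37 in ileum. Casp1-null values were 5.68, 5.34 and 7.22, then 8.38, 8.44 and 9.50, then 9.20, 9.10 and 9.77. From duodenum to ileum Itln1 rose by 3.76 in wild type (13.5-fold; adjusted p = 9.25e-05) and 3.28 in Casp1-null mice (9.71-fold; adjusted p = 0.000428), and no genotype difference was called. The wild-type step from jejunum to ileum, 1.59, was not called (adjusted p = 0.0636), but was without jejunum array 3 (0.0445) or ileum array 1 (0.0325). The annotation of this probe set lists 4 transcripts, 1 of which matched Itln1 in the RefSeq table, so related intelectin transcripts may add to its signal. The other Itln1 probe set was dimmer and moved less, with a rise of 1.09 in wild type (adjusted p = 0.00376) and 1.35 in Casp1-null mice (adjusted p = 0.00106). Its step from duodenum to jejunum was not called in wild type (0.33; adjusted p = 0.549) but was in Casp1-null mice (1.33; adjusted p = 0.00413). On that probe set every Casp1-null jejunal array exceeded every wild-type one (0.77; adjusted p = 0.163), which was not called.

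Retnlb, the goblet cell cytokine RELM-beta, was near background outside the ileum. All duodenal and jejunal arrays of both genotypes lay between 3.09 and 3.52. In ileum wild-type arrays gave 4.47, 5.72 and 3.33 and Casp1-null arrays 7.04, 3.51 and 4.09. Single arrays of each genotype stood out there, and no comparison of Retnlb was called in the main fits. With array weights the Casp1-null ileum was called higher than jejunum (2.52; adjusted p = 0.0208) and duodenum (2.46; adjusted p = 0.0176). Without Casp1-null ileum array 2 the Casp1-null ileum was called higher than jejunum (2.38; adjusted p = 0.0415) and duodenum (2.32; adjusted p = 0.0318). The Casp1-null jejunal and duodenal means, 3.18 and 3.25, were under background, so these differences do not measure the size of a rise. With all arrays the lower bound of the fold change was 1 against either segment. The highest wild-type value, 5.72, lay on the muscle-rich array 2, and the highest Casp1-null value, 7.04, on array 1, with a stroma mean of 4.93. The genes most like Retnlb over the 18 gut arrays were Rgs4 (r = 0.916), Ak4 (0.865), Fer (0.858), Mastl (0.853) and Hoxb4 (0.846), and these values lean on the few ileal arrays where Retnlb was measurable. Retn, a relative expressed in fat tissue, was 9.23 on wild-type ileum array 2 and 9.67 on Casp1-null ileum array 3, and 3.65 to 4.13 on the other 16 gut arrays.

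Counted over the 10 genes, the segment gradient was the main pattern. From duodenum to jejunum in wild type, Itln1, Pglyrp1, Lyz1 and Mmp7 rose and Reg1 fell, 5 of 10 where 7.76% of all genes were called. Itln1 was called in that step on its brighter probe set only. From jejunum to ileum Pglyrp1, Lyz1, Ang4 and Mmp7 rose, 4 of 10 against 15.4%. From duodenum to ileum Itln1, Pglyrp1, Lyz1, Ang4 and Mmp7 rose and Reg1 fell, 6 of 10 against 27.9%. In Casp1-null mice 3 of 10 were called from duodenum to jejunum (Itln1 and Mmp7 higher, Reg1 lower; 5.85% of all genes), 2 from jejunum to ileum (Pglyrp1 and Mmp7 higher; 12.8%) and 7 from duodenum to ileum (Reg3g, Itln1, Pglyrp1, Lyz1, Ang4 and Mmp7 higher, Reg1 lower; 21%). A gene called in only 1 of them is not thereby shown to differ between them, and the direct tests above called such a difference for Pglyrp1 alone.

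The single steps rested on few arrays for several genes. The wild-type rise from duodenum to jejunum was 2.16 for Itln1 (adjusted p = 0.0237), 1.78 for Lyz1 (0.0176) and 1.75 for Mmp7 (0.0425). The Itln1 call was lost without duodenum 1 or 3 or jejunum 2 or 3 (adjusted p = 0.0646 to 0.112), that of Lyz1 without duodenum 2 or 3 or jejunum 3 (0.0588 to 0.0878), and that of Mmp7 without any single array but jejunum 1 (0.0784 to 0.177). The wild-type jejunum to ileum rise of Lyz1, 1.35 (adjusted p = 0.0447), was lost without any single array but jejunum 3 (0.0521 to 0.195). In Casp1-null mice the steps of Mmp7, 2.13 and 1.71, were lost without duodenum 1 or 2 or jejunum 3 (0.0634 to 0.1) and without jejunum 1 or 2 or ileum 1 or 3 (0.0953 to 0.136). The rises of Itln1, Lyz1, Mmp7, Ang4 and Pglyrp1 over the whole length, duodenum to ileum, were called without any one array in both genotypes. The highest wild-type ileal values of Itln1, Mmp7, Ang4 and Lyz1 lay on array 2, which was rich in muscle markers and also had the highest mean of crypt markers (8.24). The rises of these 4 genes from duodenum to ileum were called in both genotypes without both muscle-rich arrays as well.

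The alpha-defensins, the main Paneth cell peptides, were measured by 18 probe sets, 15 of which match several of these near-identical genes and cannot be given to one. Among the 18 are 2 pairs with identical values on every array, which leaves 16 distinct measurements. Their mean on the arrays ran from 7.38 to 8.00 in wild-type duodenum, 9.28 to 10.52 in jejunum and 11.01 to 11.70 in ileum. In Casp1-null mice it ran from 8.24 to 9.67, from 9.63 to 11.02 and from 11.06 to 11.51. The genotype ranges did not meet in duodenum and overlapped in the other segments. Of the 18 probe sets 17 were called higher in wild-type ileum than duodenum, where 14.7% of all genes were called higher. Their median difference was 3.33 against -0.05 over all genes. In Casp1-null mice 18 were called higher, against 10.8% of all genes. Of the 16 distinct ones these were 15 and 16. Between genotypes 0 of the 18 were called in any segment or in liver by limma, close to the 0.893% to 2.06% of all genes called. At an unadjusted p under 0.05 there were 15 in duodenum (13 distinct), 7 in liver (5 distinct) and 0 in jejunum and ileum. The median genotype difference was 1.17 in duodenum, 0.51 in jejunum and 0.02 in ileum. Defa24, measured by its own probe set, gave 9.34, 8.81 and 8.24 in wild-type and 9.84, 9.22 and 10.77 in Casp1-null duodenum (1.15; adjusted p = 0.271).

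Lyz1, Itln1 and Mmp7 varied from array to array with the alpha-defensins. Once each group's mean was removed, the deviations of the 18 gut arrays from it correlated with those of the defensin mean at r = 0.954 for Lyz1, 0.878 for Itln1, 0.833 for Mmp7 and 0.586 for Ang4. The same r was -0.0688 for Pglyrp1, 0.187 for Reg1 and -0.53 for Reg3g. As 1 case, Casp1-null duodenum array 3 held the highest duodenal Lyz1 (11.66), Itln1 (7.22), Mmp7 (6.81) and defensin mean (9.67). Its Ang4, 5.79, was below that of Casp1-null duodenum array 2 (5.82) and of wild-type duodenum arrays 1 and 2 (6.54 and 6.02). Over all 18 arrays the genes outside the 10 most like Lyz1 were Defa24 (r = 0.994), Defa39 (0.981), Spred1 (0.957), Med17 (0.943) and Atp13a3 (0.936). These r values describe arrays that share segment and preparation, and how much crypt each scraping held was not measured apart from the markers given above.

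**Figure D4:**
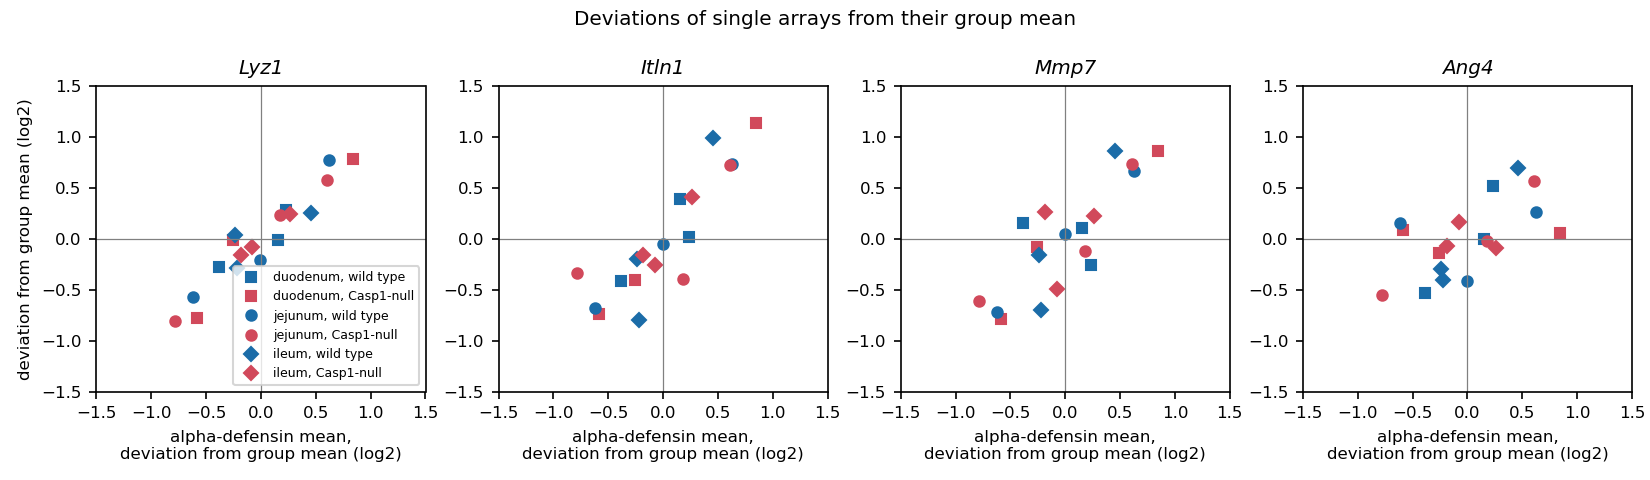
Deviation of each of the 18 gut arrays from its group mean (log2) for Lyz1, Itln1, Mmp7 and Ang4 (y axes) against the same deviation of the mean of 18 alpha-defensin probe sets (x axes). Symbols give the segment and colours the genotype; points follow a rising line most closely for Lyz1 (r = 0.954) and most loosely for Ang4 (r = 0.586).

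Other genes of these cells and of the pathways that induce the lectins were counted from lists. Between genotypes 1.21% of all genes were called in duodenum, 2.06% in jejunum, 0.893% in ileum and 0.925% in liver. These shares stand behind the genotype counts of this paragraph and the next, and list counts of 0 lie close to them. Of 21 further Paneth cell genes measured, 10 rose and 1 fell from duodenum to ileum in wild type, where 27.9% of all genes were called, among them the phospholipase Pla2g2a (3.43; adjusted p = 1.47e-05) and Atoh1, the secretory lineage factor (1.11; adjusted p = 6.7e-05). The serine protease gene Habp2 rose by 2.63 and Fgfrl1 by 1.88, and the lipase gene Pnliprp2 was the one that fell (-1.14; adjusted p = 0.0163). Between genotypes 1 of these 21 rose in ileum (0.893% of all genes called) and 0 were called in duodenum or jejunum by limma, with 3 at an unadjusted p under 0.05 in each. It was Mptx1, a pentraxin, at 4.24, 4.07 and 3.74 in wild type and 4.88, 5.50 and 5.27 in Casp1-null ileum, at least 1.27-fold higher because the wild-type mean is under background (adjusted p = 0.00626). Of 14 relatives of the 10 genes 0 were called between genotypes in any tissue by limma, with 2 at an unadjusted p under 0.05 in duodenum and 1 in jejunum, and 8 were under background in every gut group. Mmp10, a metalloprotease gene that lies nearer to Casp1 on chromosome 9 (11 protein-coding genes between), was 7.47, 6.22 and 6.42 in Casp1-null duodenum against 4.34, 4.38 and 4.16, at least 3.55-fold higher, and was not called (adjusted p = 0.0636). Of 10 goblet cell genes 8 rose from duodenum to ileum in wild type, where 14.7% of all genes were called higher. Between genotypes 0 of these 10 were called in any single segment by limma, with 1 at an unadjusted p under 0.05 in duodenum and in jejunum.

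Of 22 other antimicrobial genes, 1 rose and 3 fell in Casp1-null jejunum, where 2.06% of all genes were called; that share also stands behind the jejunal counts that follow. Those that fell were the nitric oxide synthase Nos2 (13.3-fold) and the peroxide-producing pair Duox2 (11.7-fold) and Duoxa2 (15.2-fold), in the same segment as Pglyrp1. In duodenum every Casp1-null array was also below every wild-type one for Nos2 (at least 2.59-fold, adjusted p = 0.139) and Duoxa2 (2.58-fold, adjusted p = 0.382). Neither was called, and Duox2 overlapped there. The one that rose in jejunum was Lbp, the lipopolysaccharide-binding protein (1.94; SE 0.306; adjusted p = 0.00349), which rose in duodenum too (1.45; adjusted p = 0.0338). In ileum every Casp1-null array was above every wild-type one for Lbp (0.96, adjusted p = 0.319), without a call. In liver 1 fell, the lectin gene Zg16 (-1.72; SE 0.241; adjusted p = 0.0387), and in ileum 0 were called by limma, with 1 at an unadjusted p under 0.05. Of 23 genes of the interleukin-22 and STAT3 pathway 1 was called between genotypes in jejunum, Ahr, the aryl hydrocarbon receptor (0.76; adjusted p = 0.0235), and 0 in duodenum, ileum or liver by limma, with 3, 1 and 3 at an unadjusted p under 0.05. Of 21 genes of Toll-like receptor, NOD and interleukin-1 signalling 1 fell in jejunum, the NF-kappaB inhibitor Nfkbia (-0.74; adjusted p = 0.0422), and 0 were called in duodenum, ileum or liver by limma, with 5, 0 and 0 at an unadjusted p under 0.05. Of 16 tuft cell and type 2 genes 0 were called in any tissue by limma, with 1 in duodenum, 5 in jejunum, 2 in ileum and 2 in liver at that level. Interleukin-18, a substrate of caspase-1, had Il18 means of 10.01 and 10.01 in duodenum, 9.44 and 9.05 in jejunum and 7.96 and 7.98 in ileum (wild type, then Casp1-null), with no genotype call.

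In liver most of the set was at background. Averaged over the segments, 9 of the 10 genes were called higher in gut than in liver in each genotype, all but Retnlb. Of all genes 31.1% were called higher in gut in wild type and 30.2% in Casp1-null mice. In either direction the shares were 70.1% and 69.9%. In wild type Reg3b was 137-fold, Reg3g 82.6-fold, Lyz1 39.1-fold and Ang4 3.58-fold higher in gut. Against livers under background the excess was at least 29.8-fold for Pglyrp1, 19.8-fold for Reg1, 8.03-fold for Reg3a, 6.04-fold for Itln1 and 5.39-fold for Mmp7. In Casp1-null mice it was at least 199-fold for Reg3b, 138-fold for Reg3g and 50.8-fold for Reg1. Array medians were 0.27 higher in liver than in gut, so gut excesses read that much larger relative to the median. Retnlb, at 0.96 in wild type (adjusted p = 0.0985), was called higher in gut after centring arrays on their medians (1.23; 0.0349) and without wild-type ileum array 3 (0.038). Its wild-type means, 3.69 over the segments and 2.72 in liver, are both under background, so these calls show no gut excess. Ang4 was the weakest, and its lowest wild-type gut array, 5.49, was under its highest wild-type liver array, 5.54.

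In liver Reg3g was the one member called between genotypes. Reg3g was 6.11, 6.55 and 5.91 in wild-type and 5.14, 5.10 and 5.01 in Casp1-null liver. Reg3b was 5.69, 6.30 and 5.41 against 4.66, 4.61 and 4.68. Every Casp1-null liver was below every wild-type liver for both genes, and Reg3a was under background in both genotypes. Enterocyte markers averaged 8.56 to 8.83 in wild-type and 8.21 to 8.30 in Casp1-null livers, with 8 of 14 at an unadjusted p under 0.05, and alpha-defensin probe sets 5.03 to 5.41 and 4.77 to 4.88. Goblet cell genes averaged 5.62 to 5.85 and 5.48 to 5.67, with 6 of 10 at that level. The share of all genes at that level is not given, so whether these counts of markers exceed it was not assessed. The part of these markers in the Reg3g and Reg3b differences was not tested. Reg3g fell by 1.11 (SE 0.167; adjusted p = 0.0488), at least 2-fold since the Casp1-null mean is under background, and Reg3b, at -1.15 (SE 0.219), was not called (adjusted p = 0.0957). Reg3g made 1 of 10 genes called, where 0.925% of all genes were called. The call lay at the threshold: it was lost without any one of the 6 livers (adjusted p = 0.0657 to 0.157). In the fit of all 24 arrays both Reg3g (adjusted p = 0.0368) and Reg3b (0.00537) were called.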

How the data were processed

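RNA of 24 samples was hybridised to Affymetrix whole-transcript arrays, with 100 ng of total RNA per sample. The authors deposited log2 expression values of 35556 probe sets, made with RMA, per the submitters' processing notes; its version and a genome build are not given in the sources used here. RMA brings arrays to a similar range of brightness, though array medians were 4.874 to 5.005 in gut and 5.187 to 5.224 in liver. Differences of genes near the top or the bottom of the scale can be compressed. Probe sets were named from the platform annotation: 21218 had 1 gene symbol, 1881 several and 12457 none. Genes stand for their brightest probe set with 1 symbol. Promoter windows are from RefSeq, and Retnlb is named only.

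The test was limma's moderated linear model (limma 3.58.1, R 4.3.3), with Benjamini-Hochberg adjustment over all 35556 probe sets; every adjusted p is limma's. The 18 gut arrays shared a fit of 6 groups (12 residual degrees of freedom), the 6 livers were fitted apart (4), and gut was set against liver in a fit of all 24 arrays (16). The mean over segments used averages by genotype and number (4). On simulated data for jejunum with 200 of 35556 probe sets changed, the fit recovered 76% of 2-fold and 93% of 4-fold changes, with 8 false calls among 177. Number of arrays limits the precision.

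The genes named are the 10 members and, for Reg3b, Reg3g, Lyz1 and Retnlb each, the 5 genes outside the members most like it. Up to 4 called genes per list and comparison were also named, and up to 3 relatives or defensins of widest range. Reg2, Reg3d, Retn, Lyz2, Mmp10, Il18, Pnliprp2 and Defa24 in duodenum were named after their values were seen. The members and lists were chosen with earlier results of these data known. Alternatives tried were trend and robust fitting, a filter at the median, renormalisation, centring, array weights, blocks by number, smaller or larger sets of arrays, averaging a gene's probe sets and leaving out each array. Leaving out both muscle-rich ileal arrays was chosen after seeing the data. In the main fits of single arrays the numbers were not taken as pairs, while the mean over segments and the blocks grouped arrays by number. Deviations of equal genotype and number in different segments correlated at -0.0978 to 0.173 (median 0.0522), over 0.1 in 5 of 18 pairs. Those of equal genotype and other number correlated at -0.21 to 0.217 (median -0.037), over 0.1 in 4 of 36 pairs.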

Additional observations from a re-analysis of the deposited data

Results flagged for a closer look

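The genotype difference of Pglyrp1 in jejunum minus that in duodenum was -1.71 (SE 0.212; limma adjusted p = 0.00584): all 3 Casp1-null jejunal arrays lay below all 3 wild-type ones, while the duodenal arrays of the genotypes overlapped. It was called under all 21 alternative settings (adjusted p = 0.00216 to 0.0488).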

How the results depend on the processing

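Recomputed differences were counted for 62 pairs of gene and comparison, those called in the main fit or in at least 1 alternative. Of these 1027 recomputed differences, 948 kept their direction and their side of the threshold, 57 were no longer called, 22 became called and 0 reversed. Of 271 recomputed counts of called genes 34 moved by over 1.5 times; the cause was not tested. In ileum the count between genotypes went from 1 to 0 with only the arrays of the groups compared and without both muscle-rich arrays, and leaving out each array gave 0 to 1. In liver it went from 1 to 0 with trend and robust fitting, renormalisation, array weights, the replicate block or the mean of a gene's probe sets, and was 2 with all 24 arrays; leaving out each array gave 0. In the mean over segments it went from 2 to 1 with the replicate block, and leaving out each number gave 1 to 2. From duodenum to jejunum leaving out each array gave 2 to 5 genes in wild type (5 with all) and 2 to 3 in Casp1-null mice, where only the arrays compared gave 1. From jejunum to ileum the Casp1-null count of 2 became 4 with array weights, 1 with only the arrays compared or without both muscle-rich arrays, and 1 to 3 when leaving out each array. Array weights called 1 gene, Pglyrp1 (adjusted p = 0.0295), where the ileal genotype difference was compared with the jejunal one. The replicate block kept the genotype counts of 1 in jejunum and 1 in ileum; the Pglyrp1 difference in jejunum had an adjusted p of 0.000136 in it. Whether equal numbers mark the same mouse is not known. Reg3b, Reg3g and duodenal Reg1 lie near the top of the scale, which limits differences between segments, and Retnlb near background.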
